A study of Drosophila melanogaster with 30 samples.

Results

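Glutathione S-transferase (GST) genes of the fruit fly were compared across age and sleep fragmentation. They were taken as the genes of the count table whose symbol starts with Gst and a capital letter, and 35 of 17559 genes met this rule. They fall into 6 classes, with 11 genes of the delta class (D), 14 of the epsilon class (E), 3 of omega (O), 1 of sigma (S), 4 of theta (T) and 2 of zeta (Z). Poly(A) RNA was sequenced from single male adults of Drosophila melanogaster, genotype Cantonized w1118, a white-eyed laboratory strain, which all groups share. Heads and bodies were each taken from 25-day-old flies with fragmented sleep (aged SF), from 25-day-old flies with normal sleep (aged NSF) and from 5-day-old flies with normal sleep (young). Each of these 6 groups held 5 libraries, 30 in all, and the sleep groups were set by a sleep assay of each fly before collection. Aged SF flies can be compared with aged NSF flies of the same age, while fragmented sleep at 5 days was not sampled.

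GSTs join the small peptide glutathione to reactive, often toxic molecules, which makes these more soluble and easier to remove. The delta and epsilon classes are expanded in insects, lie in tandem gene clusters and are best known for resistance to insecticides and for handling products of oxidative damage. The sigma enzyme is abundant in indirect flight muscle, omega enzymes act as thiol transferases and reductases, and zeta enzymes isomerise maleylacetoacetate in the breakdown of tyrosine. Several delta genes are targets of the antioxidant transcription factor encoded by cnc, the fly counterpart of mammalian Nrf2.

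All 11 class D genes lie within 20849 bp of chromosome 3R (12364776 to 12385624, BDGP6, the assembly of dm6). In chromosome order they are GstD10, GstD9 and GstD1 on the minus strand, then GstD2 to GstD8 and GstD11 on the plus strand, and the starts of GstD1 and GstD2 face each other across 2702 bp. GstE1 to GstE10 form a second cluster of 13198 bp on 2R (18396638 to 18409835), and GstE11 to GstE14 lie singly elsewhere on 2R. GstO1 to GstO3 sit together on 3L (8518885 to 8524866) beside the related gene se, GstZ1 and GstZ2 are neighbours on 3R, and GstT1 and GstT2 on 2R. GstS1 lies alone on 2R, and GstT3 and GstT4 lie apart on the X chromosome. In class D 7 of 11 genes and in class E 9 of 14 have a single exonic block, and all genes of the other classes have several. GstT2 shares 25.1% of its exonic sequence with CG12926 on the opposite strand, and the other members share at most 5.1% with any gene, so that GstT2 counts may hold reads of CG12926. Neighbours within the clusters are similar in sequence, and the authors dropped reads with low mapping quality, so reads from near-identical stretches may be missing or split among members.

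Reads counted on genes ranged from 1685034 to 3597530 per head and from 2458538 to 8060238 per body, and the GST genes together took 0.204% to 0.408% of them. Levels are given as CPM, the reads of a gene scaled to the TMM-adjusted total of its library. The floor for a gene with no read, 3 reads, equals 0.833 to 1.94 CPM in heads, while bodies have a floor of 0.359 to 1.29 CPM. Photoreceptor markers were at least 31043 CPM in sum in every head and the testis markers at least 531 CPM in every body, as the tissue labels say. One aged NSF body (library 2) stood apart with 712 CPM of photoreceptor markers, against 37.4 to 89.2 CPM in the other bodies, and with 730.2 CPM of yolk protein genes. Another aged NSF body (library 1) had 531 CPM of testis markers, against at least 4041 CPM in the other bodies. Calls in bodies that rest on the aged NSF group are therefore also given without both libraries.

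GstD1 (FBgn0001149, chromosome 3R, 12367817 to 12369268, minus strand), whose enzyme can remove hydrogen chloride from DDT and whose promoter is used to report oxidative stress, had the highest level per kb of exon of all members in all 6 groups. It averaged 1329 ± 368, 1125 ± 70.3 and 663 ± 118 CPM per kb in aged SF, aged NSF and young heads, and 928 ± 211, 1414 ± 233 and 827 ± 154 CPM per kb in aged SF, aged NSF and young bodies (SD, n = 5). Per kb it made up 45%, 44.0% and 28.1% of all GST signal in aged SF, aged NSF and young heads. GstE12 came next in every group, at 282 ± 69.5, 257 ± 44.3 and 434 ± 24.4 CPM per kb in aged SF, aged NSF and young heads, and its libraries did not overlap with those of GstD1 in any group. GstE9 was the third in heads, at 200.1 ± 62.9, 167 ± 46.3 and 381 ± 117 CPM per kb in aged SF, aged NSF and young flies. In all groups the libraries of the second and the third member overlapped. In bodies the third place was held by GstT4 in both aged groups (237 ± 34.4 CPM per kb in aged SF and 222 ± 57.4 in aged NSF bodies) and by GstS1 in young bodies (228 ± 33.4 CPM per kb).

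At the other end, GstD4, GstD6 and GstD7 had 0 to 5 reads over the 5 libraries of any head group and 7 to 60 reads in any body group. Counts of 0 in a whole group, as for GstD4 and GstD7 in aged SF heads, allow up to 3 reads. A filter on low counts kept 30 members in heads, all but GstD4 to GstD8, and 29 in bodies, all but GstD4, GstD6, GstD7, GstD11, GstE4 and GstE14. Counts of members below refer to these tested members, and since the filter admits a gene through its higher groups, they do not describe all 35.

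**Figure D1:**
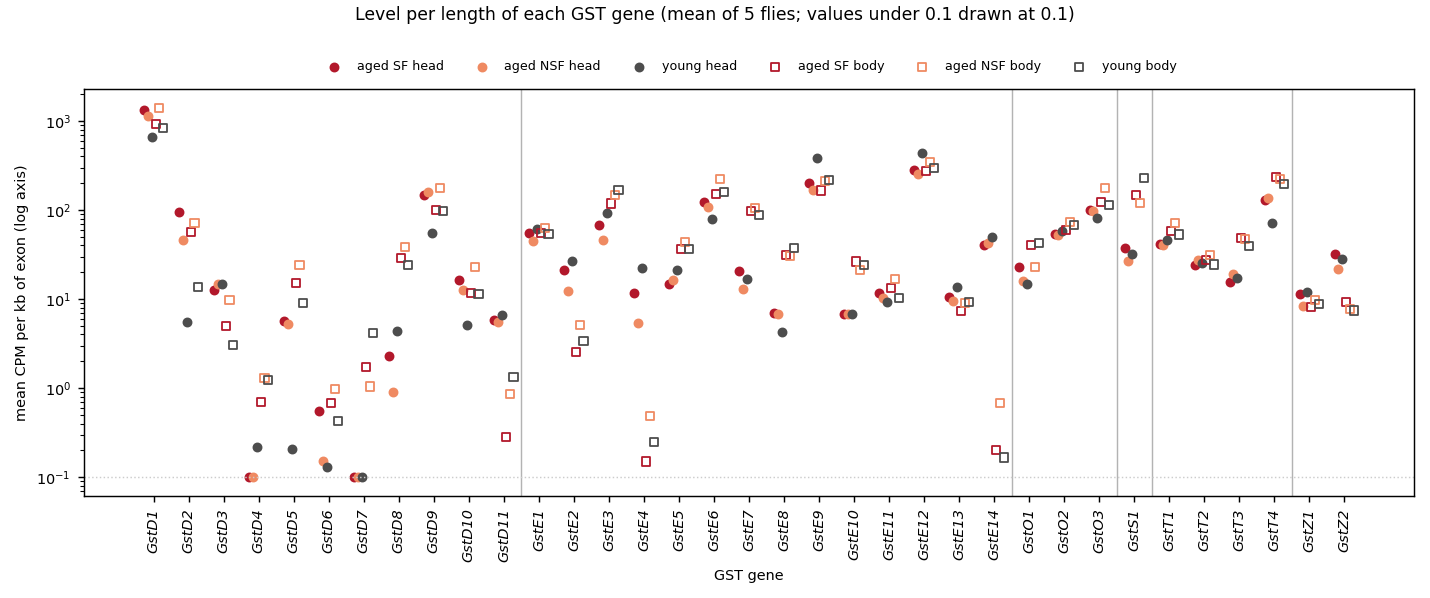
Mean level of each of the 35 GST genes, in CPM per kb of exonic length on a log axis, in heads (filled circles) and bodies (open squares) of aged SF, aged NSF and young flies (mean of 5 libraries each, vertical lines between classes, values under the dotted line drawn on it). GstD1 stands highest in every group, and GstE14 and GstE4 are near the bottom in bodies and well above it in heads.

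The first question is what age changed in the heads of flies that still slept normally. Class D genes led the increases and class E genes the decreases. In aged NSF against young heads, 5 members rose (GstT4, GstD1, GstD9, GstD2 and GstD10) and 4 fell (GstE12, GstE3, GstE9 and GstE2) of 30 tested, at an edgeR quasi-likelihood Benjamini-Hochberg adjusted p under 0.05 over all genes. Of all 9088 genes tested, 11.4% rose and 11.5% fell, so that the members' 5 and 4 of 30 lie close to this background. By class, 4 of 6 tested D genes rose and none fell, 4 of 14 E genes fell and none rose, 1 of 4 T genes rose, and no O, S or Z gene passed. The median log2 fold change was 1.03 for class D, -0.40 for class E, -0.18 over all tested members and 0.02 over all genes.

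GstD2 (FBgn0010038, chromosome 3R, 12371971 to 12372704, plus strand) had the largest log2 fold changes with age of all members tested in heads. In heads it had 57.6, 23.9, 42.0, 59.2 and 163 CPM in aged SF heads, 28, 43.6, 26.9, 24.4 and 45.4 CPM in aged NSF heads and 6.94, 2.5, 1.30, 3.03 and 6.56 CPM in young heads. All aged heads lay above all young heads, and aged SF head 5 was far above the others. The log2 fold change was 3.01 ± 0.56 in aged NSF against young heads (adjusted p = 0.00126) and 4.05 ± 0.55 in aged SF against young heads (adjusted p = 9.3e-05), which became 3.46 without aged SF head 5. GstD1 had 1018, 1030.4, 882, 1006 and 1666 CPM in aged SF heads, 967, 1010.4, 985, 860.2 and 921 CPM in aged NSF heads and 501, 484, 513, 726 and 571 CPM in young heads. Here too no aged head overlapped with a young head. GstD1 rose by 0.76 ± 0.15 on the log2 scale in aged NSF heads (adjusted p = 0.000483) and by 1.0 ± 0.15 in aged SF heads (adjusted p = 1.72e-05).

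The neighbours of GstD1 on the minus strand moved the same way. GstD9 (FBgn0038020, chromosome 3R, 12366163 to 12367564, minus strand) had 122, 97.4, 69.7, 102 and 186 CPM in aged SF heads, 103, 112, 94.5, 98.5 and 211 CPM in aged NSF heads and 37.9, 29.4, 40.2, 64.2 and 46.3 CPM in young heads, again with no overlap between aged and young heads. Its log2 fold change was 1.5 ± 0.29 in aged NSF heads (adjusted p = 0.00118) and 1.41 ± 0.29 in aged SF heads (adjusted p = 0.00181), each against young heads. GstD10 (FBgn0042206, chromosome 3R, 12364776 to 12365735, minus strand) had 19.1, 12.0, 14.3, 5.69 and 21.6 CPM in aged SF heads, 9.19, 14.7, 13.6, 4.44 and 13.2 CPM in aged NSF heads and 4.16, 5.55, 7.77, 2.53 and 2.46 CPM in young heads, and its aged and young libraries overlapped. It rose by 1.70 ± 0.42 in aged SF heads (adjusted p = 0.0037) and by 1.30 ± 0.42 in aged NSF heads (adjusted p = 0.0265). The aged NSF call did not pass without aged NSF head 2 (adjusted p = 0.0652), 3 (0.0596) or 5 (0.0522), or without young head 4 (0.0591) or 5 (0.0735). The tested D genes that did not pass in heads were GstD3 (0.01 in aged NSF and -0.20 in aged SF heads) and GstD11 (-0.27 and -0.19), both further along the plus strand.

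GstD5 (FBgn0010041, chromosome 3R, 12375733 to 12376572, plus strand) was kept out of the head test by its low counts, and most of its head reads were in aged flies. It had 57 reads in aged SF heads, 62 in aged NSF heads and 2 in young heads, or 0.812, 1.77, 3.46, 6.45 and 11.5 CPM in aged SF heads, 2.68, 2.05, 7.57, 7.77 and 1.79 CPM in aged NSF heads and 0.463, 0, 0, 0 and 0.410 CPM in young heads. The ratio of reads to young heads was 28 (95% counting interval 7.40 to 237) for aged SF and 27.5 (7.29 to 232) for aged NSF heads, and these intervals cover counting error only. Both comparisons passed at an adjusted p under 0.05 with no filter on low counts and in DESeq2. GstD5 lies near the floor in several heads, with 2 reads in aged SF head 1 and none in young heads 2, 3 and 4, so whether every fly of the groups is separated is not resolved at this depth.

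GstT4 (FBgn0030484, chromosome X, 13404749 to 13409323, plus strand), of the theta class, was the member with the smallest adjusted p in aged NSF against young heads. In heads it had 142, 178, 142, 162 and 163 CPM in aged SF heads, 155, 177, 135, 168 and 197 CPM in aged NSF heads and 104, 68.3, 79.7, 112 and 71.4 CPM in young heads. The aged groups lay side by side, and both were wholly above the young group. This gene had a log2 fold change of 0.94 ± 0.15 in aged NSF heads (adjusted p = 3.67e-05) and 0.86 ± 0.15 in aged SF heads (adjusted p = 9.91e-05). The other 3 theta genes did not pass, with log2 fold changes of -0.19 (GstT1), 0.15 (GstT2) and 0.15 (GstT3) in aged NSF heads.

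Among the epsilon genes, those with the highest levels per kb, GstE12 and GstE9, fell. GstE12 (FBgn0027590, chromosome 2R, 24766718 to 24768172, minus strand), outside the E cluster, had 241, 472, 472, 424 and 359.6 CPM in aged SF heads, 354, 360.1, 458, 335 and 289 CPM in aged NSF heads and 594, 554, 617, 639 and 632 CPM in young heads. All aged heads were below all young heads. On the log2 scale its change was -0.75 ± 0.15 in aged NSF heads (adjusted p = 0.000644) and -0.62 ± 0.15 in aged SF heads (adjusted p = 0.00342). GstE9 (FBgn0063491, chromosome 2R, 18409048 to 18409835, plus strand), at the end of the E cluster, had 124, 151, 218, 197 and 98.7 CPM in aged SF heads, 131, 124, 180.2, 145 and 79.5 CPM in aged NSF heads and 257, 198, 312, 447 and 287 CPM in young heads. Aged NSF and young heads did not overlap, whereas aged SF head 3, at 218 CPM, exceeded young head 2. It fell by 1.18 on the log2 scale in aged NSF heads (adjusted p = 0.00296) and by 0.93 in aged SF heads (adjusted p = 0.0134).

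GstE3 and GstE2, neighbours near the start of the cluster, passed in aged NSF heads. GstE3 (FBgn0063497, chromosome 2R, 18400713 to 18401467, plus strand) had 52.0, 39.0, 71.0, 55.8 and 36.1 CPM in aged SF heads, 33.7, 34.4, 49.1, 32.6 and 25.1 CPM in aged NSF heads and 79.1, 67.5, 40.8, 71.3 and 91.9 CPM in young heads. GstE2 (FBgn0063498, chromosome 2R, 18399486 to 18400375, plus strand) had 16.6, 17.3, 26.4, 11.8 and 21.2 CPM in aged SF heads, 13.8, 9.89, 13.3, 9.25 and 8.97 CPM in aged NSF heads and 31.0, 20.6, 23.3, 26.8 and 17.2 CPM in young heads. Aged NSF and young heads did not overlap for GstE2, while for GstE3 young head 3 lay within the aged NSF range. In both genes the aged SF mean lay between the aged NSF and young means. GstE3 had a log2 fold change of -1.0 ± 0.22 (adjusted p = 0.00123) and GstE2 of -1.09 ± 0.27 (adjusted p = 0.00351) in aged NSF against young heads. In aged SF against young heads the values were -0.47 ± 0.21 (adjusted p = 0.112) and -0.35 ± 0.26 (adjusted p = 0.364). GstE3 also passed in aged SF against young heads without aged SF head 3 or without young head 3. Of the 10 genes of the E cluster, 3 fell in aged NSF heads and none rose, and 1 of the 4 E genes outside it fell. GstE4 had the lowest log2 fold change, -2.01 ± 0.96, but its young heads spanned 2.59 to 50.9 CPM and it did not pass (adjusted p = 0.159).

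**Figure D2:**
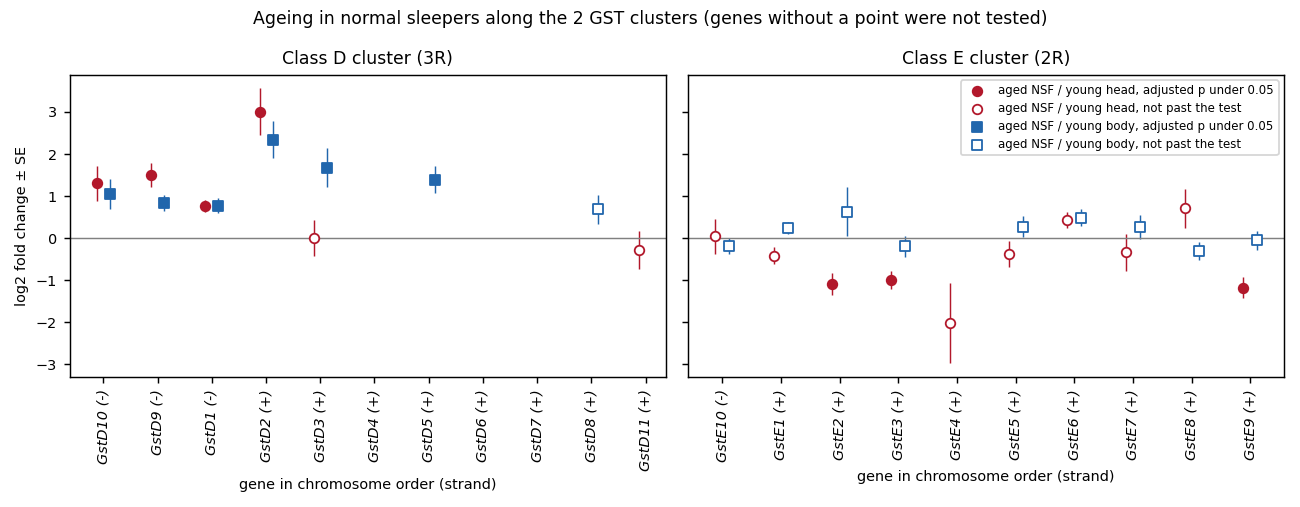
log2 fold change (± SE) of aged NSF over young flies for the genes of the class D and class E clusters in chromosome order, in heads (circles) and bodies (squares), with filled marks where the adjusted p was under 0.05. In class D the filled marks lie above 0 in both tissues, and in the E cluster the filled marks are GstE2, GstE3 and GstE9 in heads, all below 0.

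Heads of aged SF flies were set against the same young heads, so the comparisons are not independent and are given side by side. There, 6 members rose (GstD1, GstD2, GstT4, GstD9, GstD10 and GstE6) and 2 fell (GstE12 and GstE9) of 30, while 13% of all genes rose and 12.2% fell. Again 4 of 6 tested D genes rose. GstE6, in the middle of the E cluster, spanned 67.0 to 116 CPM in aged SF, 68.7 to 93.8 CPM in aged NSF and 43.1 to 83.9 CPM in young heads. Its log2 fold change against young heads was 0.62 ± 0.19 in aged SF (adjusted p = 0.0154) and 0.43 ± 0.19 in aged NSF heads (adjusted p = 0.104). Its call did not pass without aged SF head 4 (adjusted p = 0.0599) or 5 (0.0514) or young head 5 (0.0544). Median log2 fold changes were 1.21 for class D, -0.33 for class E and 0.00 over all genes.

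Some sums of cell type markers moved with age in heads as well. Flight muscle and Malpighian tubules belong to the body, so in heads those lists do not mark the cells they are named for. Summed over 8 flight muscle markers, heads had 1398 to 1848 CPM in aged SF, 1706 to 2041 CPM in aged NSF and 3224 to 4543 CPM in young flies. The 4 fat body markers found had 231 to 957, 88.5 to 451 and 827 to 3627 CPM in aged SF, aged NSF and young heads, and none of them was at 0 in all heads of a group. The 6 hemocyte markers had 106 to 124, 108 to 196 and 219.6 to 287 CPM in the same order. The 5 Malpighian tubule markers had 75.5 to 97.9, 65.9 to 98.0 and 105 to 147 CPM in aged SF, aged NSF and young heads. The 8 photoreceptor markers had 38541 to 52447, 31043 to 38851 and 38859 to 59367 CPM in the same order. All aged NSF heads thus lay just below all young heads, and aged SF heads overlapped with both groups. The part of these marker changes in the GST levels of aged heads, such as the lower class E levels, was not tested. In whole heads and bodies, fewer cells of a type and less RNA per cell cannot be told apart.

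Fragmented against normal sleep at the same age gave no GST call in heads. In aged SF against aged NSF heads, 0 of 30 members passed in edgeR, and 0.253% of all genes were called in either direction. An unadjusted p under 0.05 was found for 4 members, against 9.33% of all genes, and DESeq2 called 0 members and 0.561% of all genes. The members with the smallest unadjusted p were GstE2, with 18.6 ± 5.47 CPM in aged SF and 11 ± 2.32 CPM in aged NSF heads (SD, n = 5), and GstZ2. GstE2 had a log2 fold change of 0.74 ± 0.27 (adjusted p = 0.336, edgeR). GstZ2 (FBgn0037697, chromosome 3R, 9456815 to 9460652, minus strand), of the class that acts in tyrosine breakdown, had 73.1, 86.3, 104, 80.0 and 29.1 CPM in aged SF heads, 68.9, 49.1, 44.8, 42.2 and 49.0 CPM in aged NSF heads and 64.3, 59.2, 73.8, 61.7 and 68.9 CPM in young heads. In 4 of 5 aged SF heads it was above all aged NSF heads, and aged SF head 5 was the lowest of all heads. This gene had a log2 fold change of 0.55 ± 0.22 (adjusted p = 0.428, edgeR), and without aged SF head 5 it was 0.76 with an adjusted p of 0.025. GstD2 and GstE3 had the other p values under 0.05, with log2 fold changes of 1.04 ± 0.44 and 0.53 ± 0.22 (adjusted p = 0.47 and 0.441, edgeR). The log2 fold change was above 0 for 22 of 30 members, with a median of 0.16 against -0.01 over all genes.

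**Figure D3:**
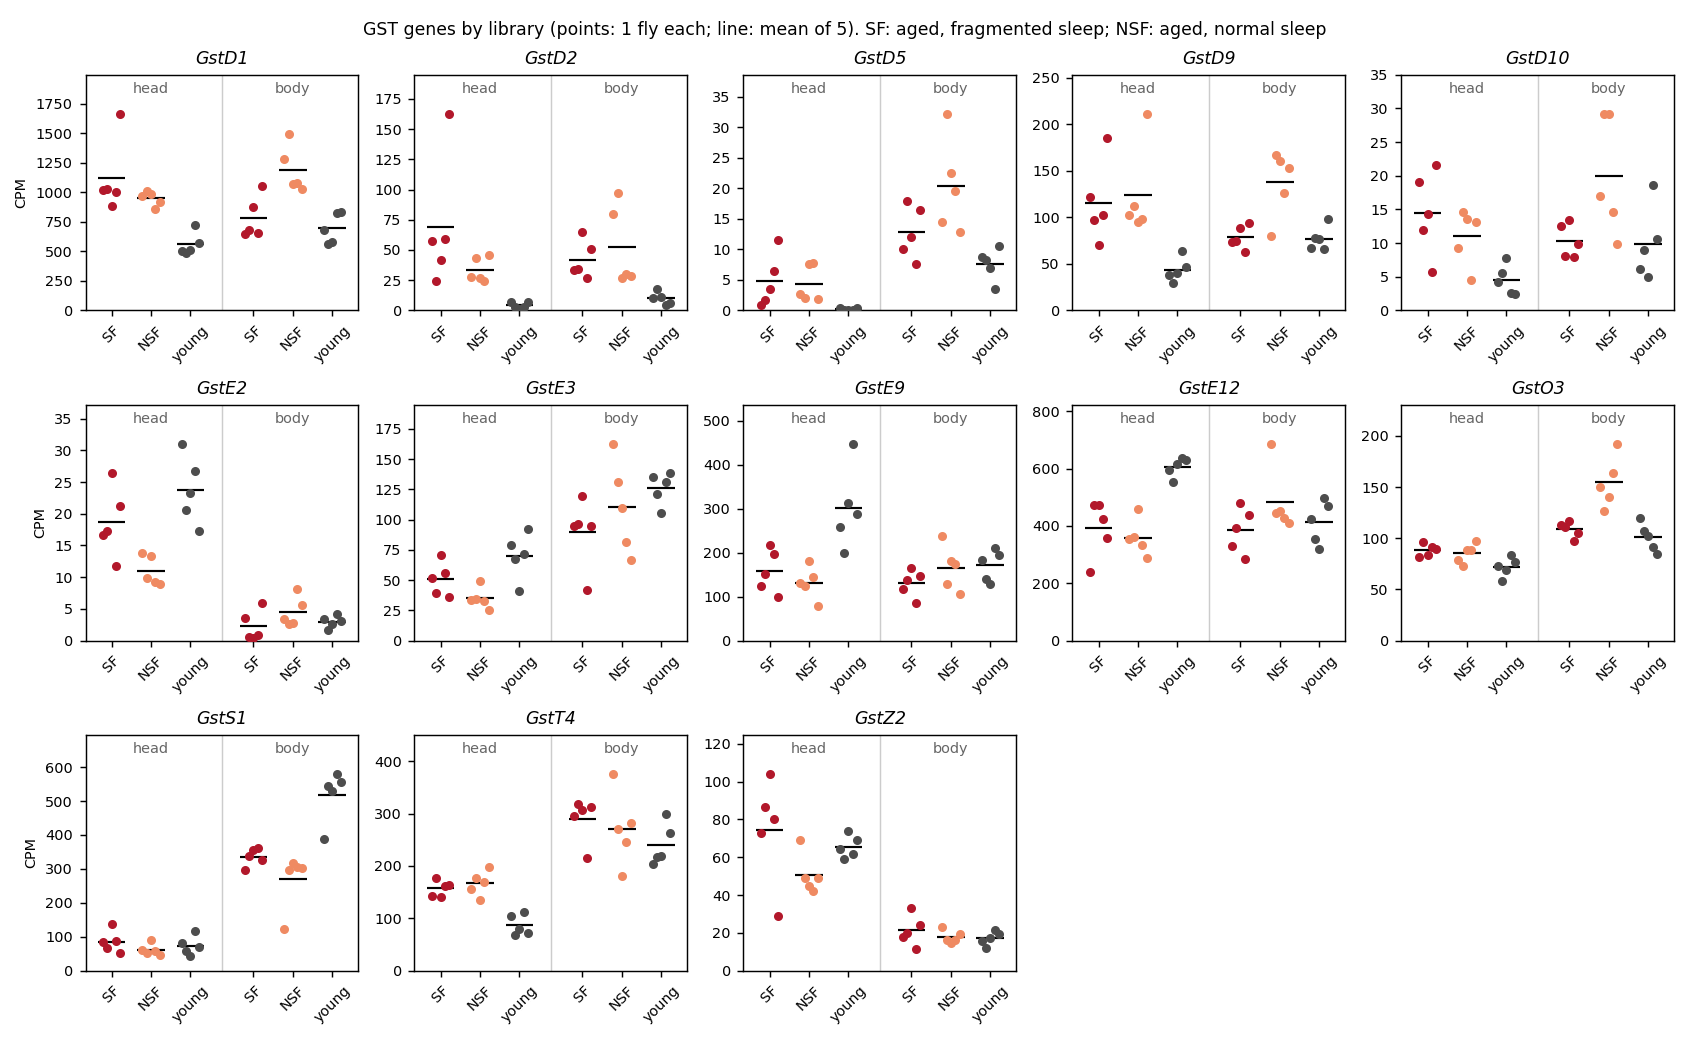
CPM of 13 GST genes in each library of aged SF, aged NSF and young heads (left of the grey line) and bodies (right of it), with each point 1 fly and the line the mean of 5. In heads GstD1, GstD2, GstD9 and GstT4 show all aged flies above all young ones, and GstE12 all aged flies below them.

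In bodies of normal sleepers, class D genes again led the increases with age, joined by GstO3, while GstS1 and GstO1 fell. In aged NSF against young bodies, 9 members rose (GstD2, GstD1, GstO3, GstD5, GstD9, GstD3, GstD10, GstE11 and GstT1) and 2 fell (GstS1 and GstO1) of 29 tested, while 21.7% of all 12009 genes rose and 19.4% fell. By class, 6 of 7 tested D genes rose, 1 of 12 E genes and 1 of 4 T genes rose, 1 of 3 O genes rose and 1 fell, the sole S gene fell, and neither Z gene passed. The median log2 fold change was 1.05 for class D, 0.24 for class E and 0.03 over all genes. Without aged NSF bodies 1 and 2, 6 members rose and 2 fell, and 8 of the 11 calls were kept. The calls lost were GstD10 (adjusted p = 0.0577), GstE11 (0.188) and GstT1 (0.0506).

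GstD2 had 33.4, 34.2, 64.7, 27.0 and 50.6 CPM in aged SF bodies, 79.5, 97, 26.4, 30.1 and 28.6 CPM in aged NSF bodies and 10.4, 17.3, 11.5, 4.81 and 5.99 CPM in young bodies. All aged bodies exceeded all young ones, and aged NSF bodies 1 and 2 were well above the other 3 of their group. On the log2 scale its change in aged NSF against young bodies was 2.34 ± 0.43 (adjusted p = 0.000965), and 1.45 without these 2 libraries. GstD1 had 649.9, 677, 872, 657 and 1054 CPM in aged SF bodies, 1281, 1496, 1075, 1078 and 1028 CPM in aged NSF bodies and 679, 565, 579, 824 and 837 CPM in young bodies. Aged NSF bodies were all above young bodies, and aged SF bodies overlapped with both other groups. Its log2 fold change in aged NSF against young bodies was 0.77 ± 0.17 (adjusted p = 0.00336), and 0.60 without aged NSF bodies 1 and 2.

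GstD9 had 73.0, 74.6, 88.2, 62.4 and 93.3 CPM in aged SF bodies, 79.8, 167, 161, 126 and 153 CPM in aged NSF bodies and 67.0, 78.1, 76.4, 65.7 and 98.1 CPM in young bodies. It was high in 4 of 5 aged NSF bodies, and aged NSF body 1 lay within the young range. This gene had a log2 fold change of 0.83 ± 0.19 in aged NSF against young bodies (adjusted p = 0.00416). GstD5, too low to test in heads, had 10.1, 18.0, 12.0, 7.56 and 16.4 CPM in aged SF bodies, 14.5, 32.2, 22.4, 19.5 and 12.8 CPM in aged NSF bodies and 8.71, 8.24, 6.98, 3.44 and 10.5 CPM in young bodies, with every aged NSF body above every young one. It rose by 1.39 ± 0.32 on the log2 scale (adjusted p = 0.00402). GstD3 spanned 1.2 to 7.22 CPM in aged SF, 4.26 to 12.6 CPM in aged NSF and 1.87 to 3.09 CPM in young bodies, and rose by 1.67 ± 0.46 in aged NSF bodies (adjusted p = 0.0105). GstD10 had 12.6, 8.09, 13.4, 7.91 and 9.85 CPM in aged SF bodies, 17.0, 29.2, 29.2, 14.7 and 9.90 CPM in aged NSF bodies and 6.2, 9.02, 5.01, 18.6 and 10.5 CPM in young bodies, with overlap between all groups. On the log2 scale its change in aged NSF against young bodies was 1.05 ± 0.36 (adjusted p = 0.0299). That call did not pass without aged NSF body 2 (adjusted p = 0.0601) or 3 (0.0696), or without young body 1 (0.0554), 2 (0.0591) or 3 (0.0761). Without aged NSF bodies 1 and 2 the log2 fold changes were 0.92 for GstD9, 1.24 for GstD5 and 1.79 for GstD3, all past the threshold. GstD8 was the tested D gene that did not pass, at 0.69 ± 0.35 (adjusted p = 0.117).

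The omega genes split. GstO3 (FBgn0035904, chromosome 3L, 8518885 to 8520295, plus strand) had 113, 111, 117, 97.6 and 105 CPM in aged SF bodies, 149.6, 127, 140.1, 164 and 192 CPM in aged NSF bodies and 119.7, 107, 103, 91.4 and 84.6 CPM in young bodies. Aged NSF bodies stood above all aged SF and all young bodies. GstO3 had a log2 fold change of 0.61 ± 0.14 in aged NSF against young bodies (adjusted p = 0.00365). GstO1, at the other end of the cluster, spanned 34.2 to 46.8 CPM in aged SF, 13.3 to 29.6 CPM in aged NSF and 32.2 to 57.4 CPM in young bodies, so that the aged NSF group lay below both others. Its log2 fold change in aged NSF against young bodies was -0.89 ± 0.21 (adjusted p = 0.00477). Without aged NSF bodies 1 and 2 GstO3 had 0.70 and GstO1 -0.74, both past the threshold. GstO2, between them, had 0.09 (adjusted p = 0.548).

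GstS1 (FBgn0010226, chromosome 2R, 17093246 to 17099501, minus strand), the sigma enzyme that is abundant in flight muscle and acts on a product of lipid peroxidation, had 297, 337, 357, 361 and 327 CPM in aged SF bodies, 124, 297, 319, 307 and 302 CPM in aged NSF bodies and 387, 544, 528, 579 and 556 CPM in young bodies. All aged bodies lay below all young bodies, and aged NSF body 1 was the lowest. This gene had a log2 fold change of -0.94 ± 0.21 in aged NSF bodies (adjusted p = 0.00287), -0.77 without aged NSF body 1, -0.75 without aged NSF bodies 1 and 2, and -0.63 ± 0.21 in aged SF bodies (adjusted p = 0.0508), each against young bodies. In heads it spanned 51.6 to 137, 47.2 to 91.1 and 44.0 to 117 CPM in aged SF, aged NSF and young flies and did not pass in any comparison. The 8 flight muscle markers were also lower in aged bodies, with sums of 2121 to 3285 CPM in aged SF, 3259.9 to 4743 CPM in aged NSF and 5529 to 6717 CPM in young bodies, and none was at 0. Between the aged groups they ran the other way, with a lower median in aged SF than in aged NSF bodies, while GstS1 averaged 336 ± 25.9 CPM in aged SF and 269.8 ± 81.7 CPM in aged NSF bodies. Aged NSF body 1, the lowest for GstS1, had the highest flight muscle sum of the aged bodies, 4743 CPM. The testis, accessory gland, hemocyte and fat body marker sums had lower medians in both aged groups than in young bodies. Their groups overlapped, except that all aged SF bodies lay below all young bodies in hemocyte markers. The 8 testis markers had 5119.6 to 6893, 531 to 5616 and 5302 to 10935 CPM in aged SF, aged NSF and young bodies, with medians of 5621, 5064 and 10187 CPM. The 7 accessory gland markers found had 778 to 2884, 1126 to 4055 and 2828 to 4033 CPM in the same groups. The hemocyte markers had 57.1 to 81.1, 62.6 to 142 and 98.5 to 184 CPM, and the fat body markers 129 to 218, 127 to 283 and 167 to 631 CPM, with Fbp1 at 0 in all young bodies. The 5 Malpighian tubule markers were higher in aged bodies, with 388 to 446, 279 to 514 and 161 to 231 CPM in aged SF, aged NSF and young bodies. The 8 midgut markers had 3238 to 7409, 2686 to 7020 and 3648 to 7620 CPM in the same order, with overlap between groups. Their medians were 5587, 4426 and 4366.5 CPM, not lower in aged bodies. The part of any of these in the body results was not tested.

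The remaining body calls lay close to the threshold and were lost in several fits. GstE11 spanned 10.3 to 16.1 CPM in aged SF, 7.76 to 19.9 CPM in aged NSF and 7.19 to 12.4 CPM in young bodies, with a log2 fold change of 0.73 ± 0.25 in aged NSF against young bodies (adjusted p = 0.0311). It did not pass without aged NSF body 1 (0.069), 2 (0.0588) or 4 (0.0518), or young body 2 (0.0656), 3 (0.0676) or 5 (0.0699). GstT1 spanned 47.7 to 64.6, 58.3 to 96.5 and 44.0 to 61.9 CPM in aged SF, aged NSF and young bodies, with 0.43 ± 0.17 in aged NSF against young bodies (adjusted p = 0.0473). It did not pass with RLE scaling (0.0743), no filter (0.0668), DESeq2 (0.0639) or only the 2 groups compared (0.0764). Nor did it pass in 10 of 15 fits that left out 1 body, among them those without aged NSF body 1 (0.0745) or 5 (0.119), young body 1 (0.0636), 2 (0.109), 4 (0.0565) or 5 (0.0897), or any aged SF body but library 2 (0.0528 to 0.0556). The E genes that fell in aged NSF heads did not pass in bodies, where the log2 fold changes were 0.23 (GstE12), -0.05 (GstE9), -0.20 (GstE3) and 0.63 (GstE2).

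In aged SF against young bodies, GstD2 rose, the sole call among 29 members (log2 fold change 2.03 ± 0.43, adjusted p = 0.00554), and 0 fell, while 11.1% of all genes rose and 3.26% fell. With RLE scaling the split was 1 higher and 1 lower, and the added member was GstS1, whose adjusted p of 0.0508 in the main test lies close to the threshold. Log2 fold changes of the 7 tested D genes were all above 0, with a median of 0.26 against 0.02 over all genes.

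In aged SF against aged NSF bodies, 0 of 29 members passed in edgeR and 0% of all 12009 genes were called in either direction. Unadjusted p values were under 0.05 for 9 members, against 17.4% of all genes. DESeq2 called 4 members and 3.83% of all genes, with GstD1, GstD9 and GstO3 lower and GstO1 higher in aged SF. The smallest p values were those of GstD9, with 78.3 ± 12.4 CPM in aged SF and 137 ± 35.9 CPM in aged NSF bodies, and of GstO1, with 38.2 ± 5.11 and 21.8 ± 6.29 CPM (SD, n = 5). GstD9 had a log2 fold change of -0.81 ± 0.19 (adjusted p = 0.0838, edgeR) and GstO1 of 0.80 ± 0.21 (adjusted p = 0.105, edgeR). GstO3 (-0.51 ± 0.14, adjusted p = 0.11) and GstD1 (-0.61 ± 0.17, adjusted p = 0.1253) followed. GstD9 passed without aged NSF body 1 (adjusted p = 0.00727), and without aged NSF bodies 1 and 2 together 2 members were lower, GstD9 (-0.92, adjusted p = 0.00832) and GstO3. All 7 tested D genes had a log2 fold change below 0, from -0.96 to -0.31 with a median of -0.67, against 0.02 over all genes. This comparison shares the aged NSF bodies with that of aged NSF and young bodies.

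**Figure D4:**
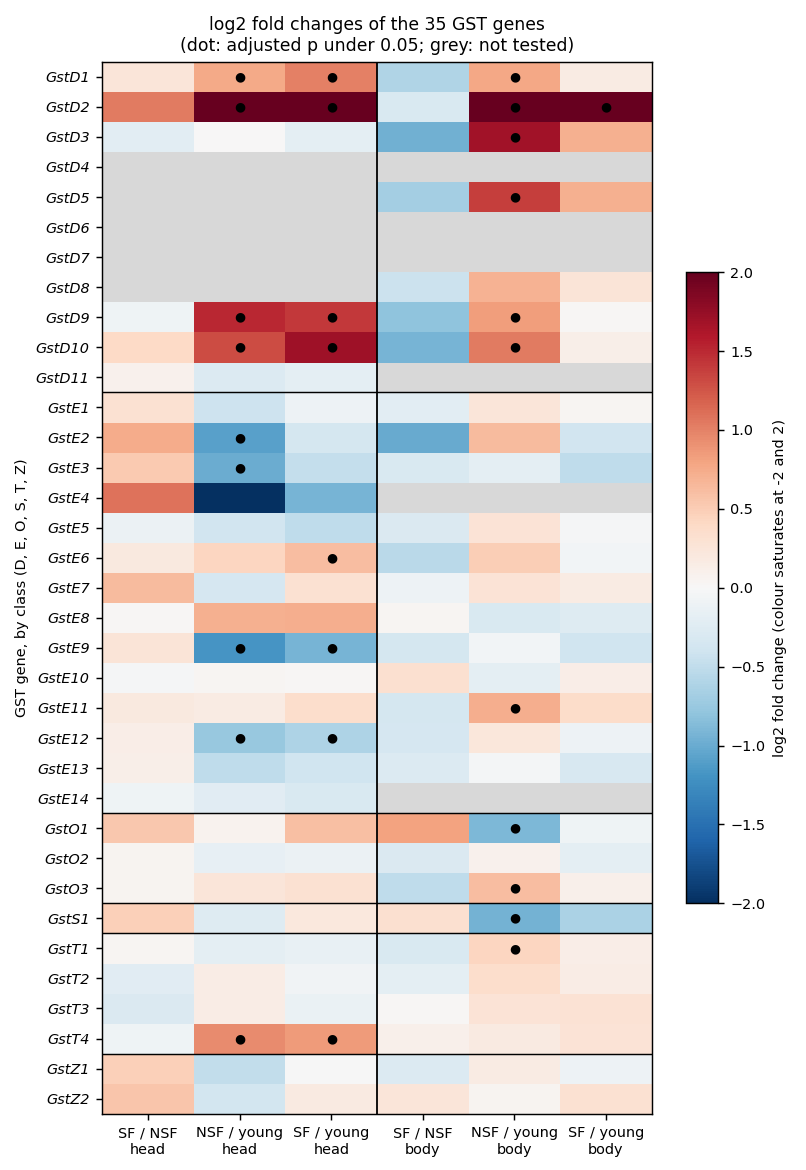
log2 fold change of each of the 35 GST genes in the 6 comparisons within heads and within bodies (colour, saturated at -2 and 2), with a dot where the adjusted p was under 0.05 and grey where the gene was not tested. Class D holds most of the dots with higher levels in aged flies, and no dot stands in the columns of aged SF over aged NSF.

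Summed over their members, the D and E classes exchanged places in heads. Class D summed to 1342 ± 414 CPM in aged SF, 1139.7 ± 82.3 CPM in aged NSF and 633 ± 111 CPM in young heads (SD, n = 5), and without aged SF head 5 the aged SF sum was 1160.5 ± 91.6 CPM. Class E summed to 874 ± 171, 759 ± 126 and 1244 ± 157 CPM in aged SF, aged NSF and young heads. In both classes aged and young heads did not overlap. All 35 genes together gave 2833 ± 354, 2468 ± 133 and 2395 ± 328 CPM, with overlap between the groups. In bodies class D summed to 955 ± 214 CPM in aged SF, 1464 ± 249 CPM in aged NSF and 829 ± 140.2 CPM in young flies, and the aged NSF bodies, which span 1278 to 1874 CPM, lay above all others. Without aged NSF bodies 1 and 2 the aged NSF sum was 1307 ± 39.5 CPM (SD, n = 3). Class E summed to 954 ± 179, 1181 ± 278 and 1060.5 ± 181 CPM in aged SF, aged NSF and young bodies, and those groups overlapped. The aged NSF sum of class E was 1041 ± 138 CPM without bodies 1 and 2. GstD1 carries most of the D sum, and in heads GstE12 and GstE9 carry most of the E sum. These 2 E genes averaged 394 and 158 CPM in aged SF, 359 and 132 CPM in aged NSF and 607 and 300.3 CPM in young heads. The sums are given without a test.

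**Figure D5:**
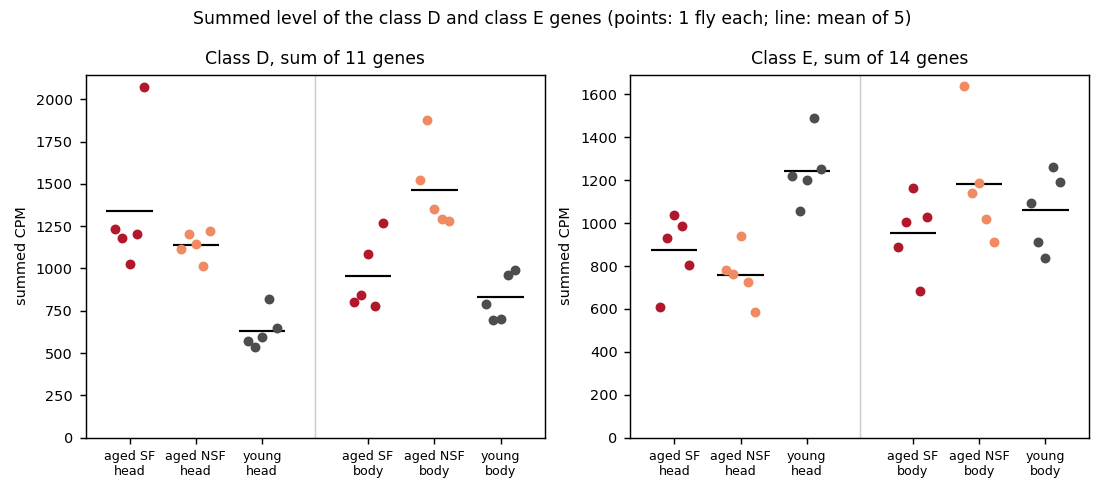
Summed CPM of the 11 class D and the 14 class E genes in each library of aged SF, aged NSF and young heads and bodies, with each point 1 fly and the line the mean of 5. In heads the D sum is higher and the E sum lower in both aged groups than in young flies, and in bodies the D sum is highest in aged NSF flies.

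Young heads and young bodies were scaled together over all 30 libraries. Of 32 members tested, 6 were higher in heads (GstE14, GstZ2, GstE2, GstE4, GstD3 and GstD11) and 19 lower. Of all genes, 27.7% were higher and 43.1% lower, so differences between the tissues were common beyond the members. Of these members, GstE14, GstE4 and GstD11 were too low to test within bodies and GstD5 and GstD8 within heads, and they entered through the tissue where they are high. Over the 27 members tested within both tissues, 3 were higher in heads (GstD3, GstE2 and GstZ2) and 17 lower. The all-gene median was -0.27 on the log2 scale, and with RLE scaling it moved to -0.40, so values relative to it are given as well. GstE14 (FBgn0033817, chromosome 2R, 13239729 to 13241013, plus strand), known as noppera-bo for its need in making the moulting hormone ecdysone, averaged 45.7 CPM in heads and 0.186 CPM in bodies. It had 591 reads over the young heads and 5 over the young bodies, a scaled ratio of 208 (95% counting interval 88.8 to 644), and below the floor in bodies no fitted fold change is given. GstE4 had 211 reads over the young heads and 6 over the young bodies, a scaled ratio of 62 (28 to 171). Such intervals cover counting error only, and in young heads GstE4 spanned 2.59 to 50.9 CPM. GstE2 averaged 21.7 CPM in heads and 3.34 CPM in bodies, and GstZ2 59.8 CPM in heads and 19.3 CPM in bodies. Relative to the median of all genes their log2 fold changes were 2.98 and 1.91.

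Genes lower in heads included GstE8, GstS1 and GstT4. GstS1 averaged 67.2 CPM in heads and 578 CPM in bodies (log2 fold change -3.10 ± 0.26, adjusted p = 9.29e-12). GstE8 averaged 4.37 CPM in heads and 47.2 CPM in bodies (-3.44 ± 0.34, adjusted p = 1.39e-10), and its neighbour GstE7 11.8 CPM in heads and 74.2 CPM in bodies (-2.65 ± 0.39). GstT4 averaged 79.1 CPM in heads and 267 CPM in bodies (-1.76 ± 0.17, adjusted p = 8.31e-11). GstD5 had 2 reads over the young heads and 198 over the young bodies. Within the D cluster, GstD3 was higher and GstD1, GstD2, GstD9 and GstD10 lower in heads among the genes tested within both tissues, so neighbouring genes differed in direction. Members not past the test were GstE1, GstE9, GstE11, GstE12, GstE13, GstT2 and GstZ1. With no filter on low counts 22 of the 25 calls were kept. GstD1, GstO2 and GstT1 were then lost, and GstD7, GstE12 and GstE9 were added.

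The age effect of normal sleepers was then compared between tissues, as the log2 fold change of aged NSF over young heads minus that of bodies. Of 32 members, 2 had a higher value in heads (GstT4 and GstD5) and 3 a lower one (GstE12, GstE9 and GstD8), while 4.34% of all genes were higher and 8.83% lower. With RLE scaling 3 members were higher and 1 lower, GstO1 being added and GstE9 and GstD8 lost. DESeq2 called 7 members and 12% of all genes, with GstO1, GstE8 and GstE2 added and GstE9 lost (adjusted p = 0.0639). The median of all genes was -0.09 with TMM and 0.12 with RLE scaling, a shift of 0.21, and the values of the members moved with it. GstT4 had 0.77 ± 0.23 (adjusted p = 0.0245), or 0.86 with TMM and 0.86 with RLE relative to the median. GstE12 had -0.98 ± 0.24 (adjusted p = 0.00821), or -0.89 and -0.90. GstE9 had -1.12 ± 0.34 (adjusted p = 0.0261), or -1.03 and -1.05. GstD5 and GstD8 were too low to test within heads, with 62 and 11 reads over the aged NSF heads and 2 and 34 over the young heads. They entered through the bodies, where they are high, and no difference is read from them. Over the 27 members tested within both tissues, 1 was higher and 2 were lower. Without aged NSF bodies 1 and 2, GstT4 had 0.96, GstE12 -0.81 and GstE9 -1.02, all past the threshold, GstE2 was added and GstD8 was lost.

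Each of these tissue differences was lost in some fits that left out 1 library. With each of the 30 libraries left out in turn, GstT4 passed in 28 fits, GstE12 in 24 and GstE9 in 23. GstT4 did not pass without young head 2 (adjusted p = 0.0506) or young body 4 (0.0523). GstE12 did not pass without aged SF body 1 (0.0618) or 4 (0.0527), aged NSF body 3 (0.0572) or young body 2 (0.0976), 3 (0.109) or 5 (0.0547). GstE9 was lost without the same 6 bodies, at 0.104, 0.0887, 0.122, 0.15, 0.161 and 0.0965, and without young head 4 (0.0586). For the effect of fragmented sleep, aged SF over aged NSF, 0 of 32 members differed between head and body in edgeR, which called 0% of all genes, and 0 in DESeq2, which called 0.731%. An unadjusted p under 0.05 was found for 7 members and for 10.2% of all genes. The smallest p was that of GstD1, whose difference was 0.79 ± 0.23 (adjusted p = 0.214, edgeR).

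Genes of another name that carry a GST fold or encode a membrane GST-like protein were looked at too. Of the 5 such genes listed (se, Mgstl, gfzf, Clic and Ef1gamma), 2 fell and none rose in aged NSF and in aged SF heads, each against young heads, where 11.5% (aged NSF) and 12.2% (aged SF) of all genes fell. The gene se, an omega-class enzyme of red eye pigment synthesis and neighbour of GstO2, averaged 38.7 ± 18.0 CPM in aged SF, 30.9 ± 18.2 CPM in aged NSF and 175 ± 33.3 CPM in young heads (SD, n = 5). It fell by 2.18 on the log2 scale in aged SF and by 2.54 in aged NSF heads (adjusted p = 0.000889 and 0.000347, edgeR), and GstO2, which shares 3.5% of its exonic sequence with se, did not pass. The microsomal GST-like gene Mgstl averaged 159 ± 33.3, 118 ± 35 and 222 ± 37.2 CPM in aged SF, aged NSF and young heads, and fell in both aged groups. In bodies Mgstl fell as well, to 107 ± 16.5 CPM in aged SF and 144 ± 31.8 CPM in aged NSF, against 218 ± 32.1 CPM in young bodies. Clic, a chloride channel protein with a GST fold, rose by 0.55 in aged SF and 0.94 in aged NSF bodies, and Ef1gamma, a subunit of a translation elongation factor, by 0.37 and 0.60.

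Several regulators of detoxification and stress genes rose in aged bodies. Of 10 regulators, 5 rose in aged SF and 6 in aged NSF bodies and none fell, against 11.1% and 21.7% of all genes that rose there. They include the antioxidant factor gene cnc (0.67 in aged SF and 0.82 in aged NSF bodies), the nuclear receptor gene Hr96, a xenobiotic sensor (0.60 and 0.84) and the NF-kB factor gene Rel (1.94 and 2.09). In heads 1 regulator rose and 1 fell in aged SF flies, and 2 rose in aged NSF flies. Rel rose in both (1.66 and 1.89), and cnc rose in aged NSF heads (0.39, adjusted p = 0.0491) and had 0.22 in aged SF heads (adjusted p = 0.279).

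Of 12 tested cytochrome P450, epoxide hydrolase, transporter and tyrosine breakdown genes, 2 fell in aged SF and 6 in aged NSF heads, and none rose, while 12.2% and 11.5% of all genes fell. The insecticide-resistance P450 gene Cyp6g1 (-0.73 in aged SF and -1.13 in aged NSF heads) and the epoxide hydrolase gene Jheh3 (-1.18 and -1.33) fell in both groups. Among 7 UDP-glycosyltransferase genes tested, 1 rose and 1 fell in aged SF and 2 fell in aged NSF heads, Ugt35b in both (-1.22 and -1.14). Of 14 peroxidase, thioredoxin, dismutase and catalase genes, 2 rose and 2 fell in aged SF heads and 1 rose and 2 fell in aged NSF heads, close to the shares of all genes (13% and 12.2% in aged SF, 11.4% and 11.5% in aged NSF heads). The thioredoxin gene Trx-2 rose (0.69 and 0.71), and the superoxide dismutase genes Sod (-0.65 and -0.69) and Sod2 (-0.76 and -0.75) fell. Of 7 tested genes of glutathione synthesis, reduction and breakdown, Ggt-1 rose (0.77 and 0.66) and CG4829 fell (-0.87 and -1.41) in both aged groups. In bodies 0 of 9 of these passed in either aged group in the edgeR test at an adjusted p under 0.05. Of all genes, 11.1% rose and 3.26% fell in aged SF bodies, and 21.7% rose and 19.4% fell in aged NSF bodies. There, of 16 tested peroxidase, thioredoxin, dismutase and catalase genes 1 rose and 2 fell in aged SF and 2 rose and 2 fell in aged NSF flies. Of 12 UDP-glycosyltransferase genes none passed in aged SF bodies, and 1 rose and 1 fell in aged NSF bodies. Of 13 genes of the P450 and epoxide hydrolase list none passed in aged SF bodies, and 1 rose and 2 fell in aged NSF bodies. No gene of any of these lists passed between aged SF and aged NSF flies, where 0.253% of all genes were called in heads and 0% in bodies.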

How the data were processed

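Single-fly heads and bodies were sequenced as poly(A) RNA. Per the labels' design text, the authors trimmed reads with Trimmomatic, aligned them to dm6 with STAR, removed non-primary alignments and those with a mapping quality under 8, and counted reads on exons with HTSeq-count. Versions, annotation and strand setting are not given in the sources used here. The deposited table holds raw counts per gene, and the authors' comparison tables were not used here.

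From these counts, edgeR 4.0.16 in R 4.3.3 was used with TMM scaling, filterByExpr and robust quasi-likelihood tests, with p-values adjusted by Benjamini-Hochberg over all genes tested and a threshold of 0.05. The 3 groups of a tissue shared 1 fit, and head and body were compared in a fit of all 30 libraries. Total counts were 1685034 to 8060238 per library, and intervals cover counting error only. Exonic lengths and positions come from Ensembl release 115 (BDGP6), which held 17253 of 17559 gene IDs and all 35 members, of dm6's assembly. The scripts were tested on simulated data.

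Alternatives were RLE scaling, no filter, DESeq2 1.42.0, only the groups compared, the replicate number as a block, each library left out, and aged NSF bodies 1 and 2 both left out. In the fit of both tissues the block paired each head with the body of the same condition and replicate number. TMM factors computed within each tissue were added after seeing the data. Members and lists were chosen with earlier results of these data known, and 11 listed names were not found. Library values are given for members past the threshold in at least 1 of 6 comparisons within a tissue, at most 12 by adjusted p, with at least 1 member of classes S, T and Z and the member with the highest level per kb, and for related lists at most 3 genes by adjusted p. Libraries are labelled as separate samples of single flies, and whether the flies shared a culture is not stated, so p-values measure the spread between these flies.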

Additional observations from a re-analysis of the deposited data

Results flagged for a closer look

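Among 78 groups of 5 values of the 13 members given by library, 8 held a library far from the other 4. The cut-off used flags about 1 in 20 for independent, normally distributed values. The 13 members share the same libraries, so the 8 are not weighed against that rate. GstD1 and GstD2 were high in aged SF head 5, at 1666 and 163 CPM. GstT4 was low in aged SF body 4, at 216 CPM. GstE12 was high in aged NSF body 1, at 686 CPM, where GstS1 was low, at 124 CPM. GstS1 was also low in young body 1, at 387 CPM. GstD9 was high in aged NSF head 5, at 211 CPM, and GstZ2 in aged NSF head 1, at 68.9 CPM.

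The log2 effect of age in normal sleepers, aged NSF over young, was called different between head and body for 5 of 32 members by edgeR. Of all genes, 4.34% had a higher value in heads and 8.83% a lower one. Head minus body was 3.03 for GstD5, -2.58 for GstD8, -1.12 for GstE9, -0.98 for GstE12 and 0.77 for GstT4. GstD5 and GstD8 have few reads in heads and were too low to test there, and with each of the 30 libraries left out they passed in 15 and 13 fits. They entered through the bodies, where they are high, and no difference is read from them. Over the 27 members tested within both tissues, 1 was higher in heads (GstT4) and 2 were lower.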

How the results depend on the processing

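The replicate numbers were not treated as pairing in the main tests, since no label says that equal numbers mark a shared fly, vial or day. Between groups of 1 tissue, libraries of the same number correlated at -0.160 to 0.252, and 13 of 30 correlated best with their own number. Heads and bodies of the same number all correlated above 0, at 0.0514 to 0.297, and 13 of 15 were best with their own. They may thus share a fly or batch, while the main fit of both tissues took the 30 libraries as independent. With the replicate block, 10 members changed in aged NSF against young bodies and 2 in aged SF against young bodies. The block lost GstD10 in aged NSF against young bodies (adjusted p = 0.0613, edgeR) and added GstS1 in aged SF against young bodies. In the fit of both tissues each head was paired with the body of the same condition and number. That pairing lost GstD5 in the tissue difference of the age effect (adjusted p = 0.0516, edgeR) and added GstD3 there. It also added GstE9 in young heads against young bodies. No other call changed.

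The number of members called in aged SF against young bodies was 1, and it was 2 under RLE scaling, with no filter, in DESeq2, with only the 2 groups compared, and without aged NSF bodies 1 and 2. With each library left out it was 1 to 2. In aged SF against aged NSF bodies DESeq2 called 4 and leaving out aged NSF bodies 1 and 2 gave 2, against 0, and with each library left out 0 to 1. In aged SF against aged NSF heads leaving out each library gave 0 to 1. The tissue difference in the age effect had 5 members, 7 in DESeq2, and 2 to 6 with each library left out. The cause was not tested. The other counts stayed within 1.5 times of the reported ones under the alternatives run, at 8 to 10 (aged NSF over young heads), 7 to 10 (aged SF over young heads), 8 to 11 (aged NSF over young bodies) and 25 to 26 (young heads over young bodies) with each library left out. TMM factors computed within each tissue, chosen after seeing the data, gave 5 and 0 members in the tissue differences of age and sleep. No direction reversed in the alternatives run. Low depth in heads limits GstD4 to GstD8.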
